A study of Mus musculus with 10 samples.

Results

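The Wnt signalling genes described here are 47 genes chosen by name: 19 Wnt ligands, 12 Frizzled and Lrp receptors, 6 R-spondins and Lgr receptors, 4 feedback antagonists, 5 genes for β-catenin and the TCF/LEF factors, and the target gene Sp5. All 47 names matched 1 mouse Ensembl identifier each, among 52636 in the count tables. RNA sequencing was done in E14 cells, a mouse embryonic stem cell line from the blastocyst, after 24 h with retinoic acid (2 µM as labelled), a vitamin A derivative that drives these cells into differentiation. Cells without the edit (WT) were set beside cells in which a CTCF binding element had been removed (CBE-KO), and each group had 2 libraries that the submitters call biological replicates. CTCF is a DNA-binding protein that shapes chromatin loops, and the study links this element to contacts between adjacent enhancers and the HoxA genes. Both groups had been grown on gelatin in serum medium with LIF, the MEK inhibitor PD0325901 and the GSK inhibitor CHIR99021, and both were moved to medium without LIF and the inhibitors when retinoic acid was added. How many edited clones the CBE-KO libraries represent is not given in the sources used here.

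Wnt ligands are secreted lipid-modified proteins. They bind a Frizzled receptor together with Lrp5 or Lrp6, which stops the destruction complex of Axin, Apc and GSK3 from marking β-catenin for breakdown, and β-catenin then acts with TCF/LEF factors on target genes. Inhibition of GSK3 mimics this signal, and mouse embryonic stem cells are commonly cultured with such an inhibitor because it relieves repression of pluripotency genes by Tcf7l1. Several targets, among them Axin2, Nkd1, Notum and Dkk1, encode proteins that damp the signal.

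The 4 libraries held 14108038 to 15632960 counts, so 3 counts, used as the floor of measurement, corresponded to 0.185 to 0.218 CPM (read counts relative to library size, with TMM scaling). The 9 markers of embryonic stem cells summed to 7913 to 8219 CPM in WT and 7589 to 7730 CPM in CBE-KO, but this sum hides opposite changes, since Dppa5a made up much of it and rose from a mean of 3490 to 4247 CPM. In edgeR 6 of the 9 were lower in CBE-KO, among them Utf1 (mean 755 to 237 CPM, log2 change -1.67) and Tdgf1 (434 to 189 CPM, -1.20). Klf4, Zfp42, Sox2 and Pou5f1 fell by less (-0.49, -0.42, -0.35 and -0.33). Nanog and Dppa5a were higher (0.15 and 0.28). Beside the counts in these marker lists, 43.1% of all genes tested passed in edgeR, 21.6% as higher and 21.5% as lower. Dcn, Lum, Postn and Twist2, markers of fibroblast feeder cells, had no counts in any library, while the sum over the 9 feeder markers was 24.7 to 27.8 CPM in WT against 40.1 to 42.4 CPM in CBE-KO, with Col1a1 and Pdgfrb higher in CBE-KO in edgeR. Thy1, also tested, did not pass (mean 8.64 CPM in WT against 8.89 CPM in CBE-KO). The sum over 7 neural progenitor markers was 23.3 to 23.6 CPM in WT against 27.9 CPM in both CBE-KO libraries. This sum also hides opposite changes. Of 3 tested in edgeR, Pax6 and Sox1 were higher. Nes, the largest part of the WT sum (mean 13.6 CPM), went lower without passing (log2 change -0.31, edgeR adjusted p = 0.0687). Neurog2, Zic1, Olig2 and Hes5 had 0 to 7 counts per library and were not tested, and no marker was at 0 counts in all libraries. Extraembryonic endoderm markers summed to 86.3 to 88.4 CPM in WT against 94.7 to 96.4 CPM in CBE-KO, and of 7 tested in edgeR Gata4, Sox7 and Dab2 were higher (log2 changes 0.72, 0.81 and 0.77) and Amn lower (-1.15). Gata6, the largest part of that sum, did not pass (mean 50.7 CPM in WT against 51.0 CPM in CBE-KO), nor did Sox17 and Pth1r. Trophoblast markers summed to 102 to 113 CPM against 110 CPM in both CBE-KO libraries, with Krt8 and Krt18 higher (0.20 and 0.41) and Ascl2 and Tfap2c lower (-1.27 and -0.74) of 7 tested. Of the 8 endoderm and trophoblast genes that passed in edgeR, Dab2, Krt8 and Krt18 missed the threshold in DESeq2 (adjusted p = 0.0548, 0.165 and 0.0635). Mesoderm markers summed to 16.5 to 17.0 CPM against 19.1 to 19.5 CPM, and of 4 tested 0 passed in edgeR or DESeq2 and 1 had an unadjusted edgeR p under 0.05. The part of these markers in the results below was not tested. The libraries also differed in a way the labels do not state. Ddx3y, Eif2s3y and Uty, Y-linked genes, had 0 to 6 counts in the WT libraries and 267 to 920 in the CBE-KO libraries, although E14 is a male line. Kdm5d, also Y-linked, had 1 and 0 counts in WT against 4 and 7 in CBE-KO. Xist had 117 and 132 counts in WT against 73 and 116 in CBE-KO and did not pass (edgeR adjusted p = 0.0736). Whatever made the groups differ in Y-linked counts cannot be told apart from the deletion in any comparison below.

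Promoter sequences are shown first for the ligand genes with the largest rise and the largest fall described below, Wnt10b and Wnt4. The 250 bases before the RefSeq start site on GRCm38.p6 are given 5′ to 3′. That of Wnt10b lies at chr15:98778151-98778400 on the minus strand, and capitals mark the E-box CANNTG. That of Wnt4 lies at chr4:137277385-137277634 on the plus strand, and capitals mark the Sp/KLF site GGGCGG on either strand, where neighbouring matches may overlap.
Wnt10b: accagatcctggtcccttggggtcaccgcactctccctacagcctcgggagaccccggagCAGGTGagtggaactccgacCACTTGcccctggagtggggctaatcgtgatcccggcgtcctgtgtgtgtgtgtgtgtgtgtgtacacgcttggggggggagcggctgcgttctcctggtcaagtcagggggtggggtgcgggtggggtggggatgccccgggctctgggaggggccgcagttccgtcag
Wnt4: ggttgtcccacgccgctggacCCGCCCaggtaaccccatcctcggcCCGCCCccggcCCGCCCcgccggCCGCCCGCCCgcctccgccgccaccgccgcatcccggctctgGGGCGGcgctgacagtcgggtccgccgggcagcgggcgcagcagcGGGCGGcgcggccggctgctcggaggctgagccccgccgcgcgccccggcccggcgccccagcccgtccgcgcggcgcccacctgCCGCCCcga
The Wnt4 promoter held 8 matches to GGGCGG and the Wnt10b promoter none. From 250 bases before to 50 after the start, 35.7% of all 32851 mouse promoters in the RefSeq table held at least 1. So did 30 of the 42 promoters listed for the genes described here. Among these, the promoter of Fzd4, which rose, held 8 matches and that of Fzd5, which fell, held 10. The E-box occurred in 72.3% of all promoters, and the Wnt4 promoter also held 1, which is not marked. A link between these sites and the rise or fall was not tested.

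The TCF/LEF site, searched as CTTTGAT or CTTTGAA on both strands from 250 bases before to 50 after the start, was found in 4 of the 42 promoters listed for 33 of the 47 genes, and in 8.65% of all promoters. The 4 matches are shown in capitals with 11 bases on either side, since these are the letters through which β-catenin is known to reach its targets. They lie at chr6:119449440-119449468 on the minus strand for Wnt5b, at the third of its listed start sites, at chr7:98835050-98835078 on the plus strand for Wnt11, at chr19:30549596-30549624 on the minus strand for Dkk1 and at chr2:70474808-70474836 on the plus strand for Sp5.
Wnt5b: agtaagtctctCTTTGATctgctccctgt
Wnt11: gacgtgggcggATCAAAGcgacggtccgc
Dkk1: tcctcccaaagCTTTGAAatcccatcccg
Sp5: ggcaaggccccCTTTGATcaggaaaatcc
The match of Wnt11 reads on the opposite strand. Of these 4 genes, Wnt5b passed the edgeR test described below but not DESeq2 (adjusted p = 0.0894), and its other listed start sites held no match. Wnt11 and Dkk1 did not pass, and Sp5 was not tested. Among all genes tested 43.1% passed in edgeR, and a link between a match and a change was not tested. A core of the CTCF motif (CCA, any 2 bases, AG, any 2 bases, GGC; both strands) was found in 1 of the 42 promoters, that of Axin2, and in 2.43% of all promoters. The match is in capitals at chr11:108920205-108920234, plus strand.
Axin2: ccggggccgCCAGCAGCCGGCggggggcag
A pair of retinoic acid receptor sites, AGGTCA repeated after a gap of 2 or 5 bases on either strand, was found in none of the 42 promoters and in 0.0183% of all promoters.

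Wnt10b went from almost no reads to a clear signal in CBE-KO, most Frizzled and Lrp receptors were higher, 3 other Wnt ligands fell by more than 2-fold, and β-catenin itself differed by less than the spread between replicates. Of the 47 genes, 32 had enough counts to be tested, and 20 passed edgeR's quasi-likelihood test at a Benjamini-Hochberg adjusted p under 0.05, 12 higher and 8 lower in CBE-KO. Among all 16005 genes tested, 43.1% passed, 21.6% as higher and 21.5% as lower. When a log2 change (CBE-KO minus WT) of 1 or more in size was also required, 9 of the 32 passed, 6 higher and 3 lower, against 8.64% of all genes tested, 6.09% higher and 2.55% lower. DESeq2 called 18 of the 32, 11 higher and 7 lower, against 28.6% of all genes tested, 12.8% higher and 15.8% lower. The median log2 change of the 32 was 0.08, and that of all genes tested was 0.01. In bulk RNA, fewer cells of a type and less RNA per cell cannot be told apart. Levels are compared here between libraries for 1 gene, not between genes, because transcript lengths were not used.

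**Figure D1:**
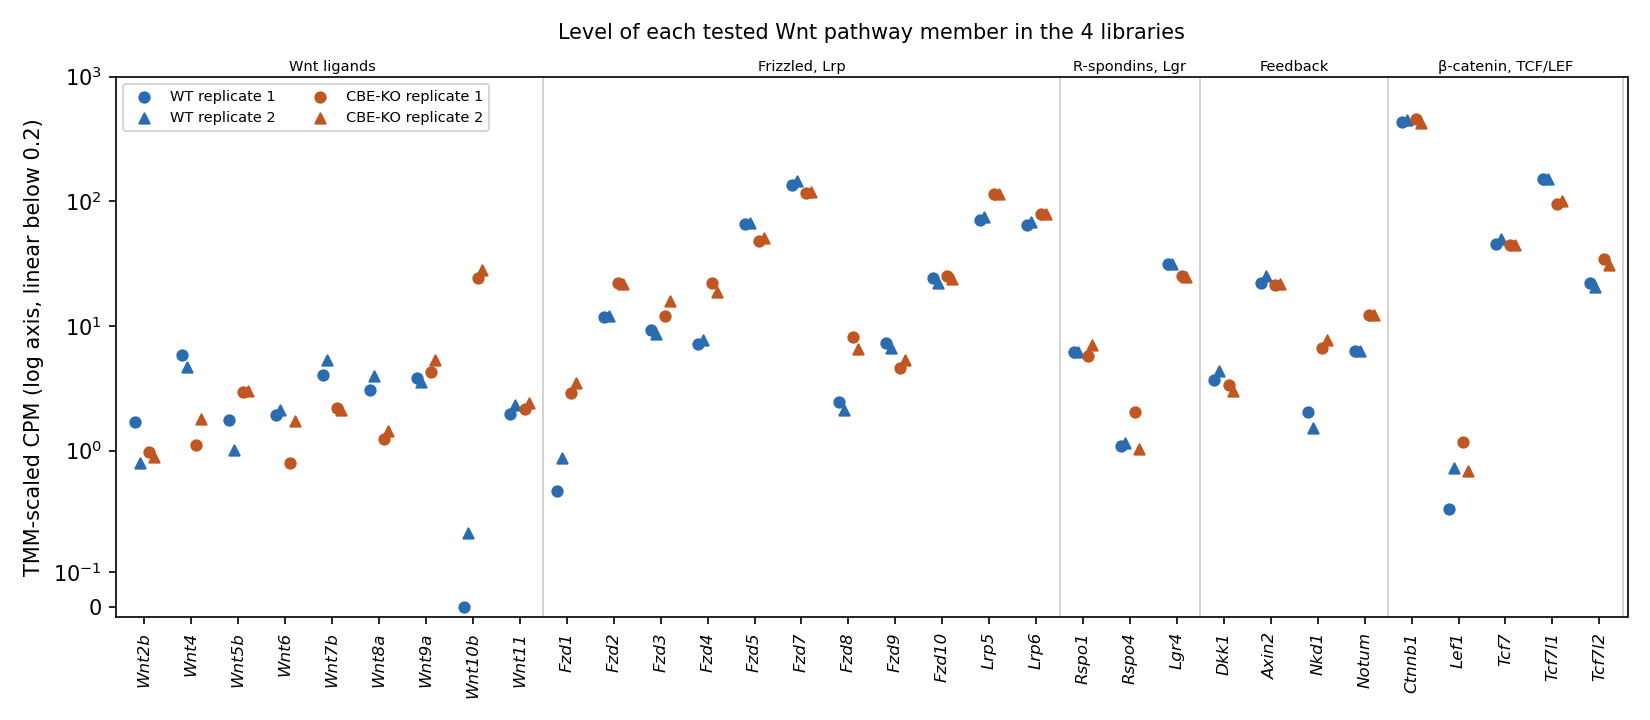
Level of each of the 32 tested genes in every library, in scaled CPM on a logarithmic axis that is linear below 0.2, with WT in blue, CBE-KO in orange, and the marker shape giving the replicate. Wnt10b shows the widest separation, with 0 and 0.218 CPM in WT against 24.4 and 28.3 CPM in CBE-KO.

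Among the ligands, 9 of 19 were tested and 5 passed, 2 higher and 3 lower. This is 55.6% of those tested, beside 43.1% of all genes tested, 21.6% as higher and 21.5% as lower. The median log2 change over the 9 was -0.42. That median is the value of Wnt2b, which did not pass, and it was -0.24 without WT replicate 1, -0.68 without WT replicate 2 and -0.23 without CBE-KO replicate 1. Wnt10b (ENSMUSG00000022996), a ligand of the β-catenin branch best known for holding back fat cell formation, had 0 and 3 counts in the WT libraries and 397 and 413 in the CBE-KO libraries. Both CBE-KO libraries lay far above both WT libraries, a ratio of 249 on the summed scaled counts (95% exact interval 84.8 to 1209, for counting error only; edgeR adjusted p = 6.50e-12). Wnt5b (ENSMUSG00000030170), a ligand close to Wnt5a and known mainly for signalling without β-catenin, was at 1.78 and 1.02 CPM in WT against 2.95 and 3.02 CPM in CBE-KO. Its groups did not overlap and its log2 change was 1.08 ± 0.32 (SE; edgeR adjusted p = 0.0113). Wnt5b rests on 14 to 48 counts per library and missed the threshold in DESeq2 (adjusted p = 0.0894) and without WT replicate 2 (edgeR log2 change 0.74, adjusted p = 0.104).

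The 3 ligands that fell were Wnt4, Wnt8a and Wnt7b. Wnt4 (ENSMUSG00000036856), needed for kidney tubules and the female gonad, was at 5.81 and 4.65 CPM in WT against 1.11 and 1.78 CPM in CBE-KO. This was a log2 change of -1.86 ± 0.28 (SE; edgeR adjusted p = 4.57e-05), with no overlap between groups. Wnt8a (ENSMUSG00000012282), which acts in the primitive streak and early body axis, was at 3.07 and 3.99 CPM in WT against 1.23 and 1.44 CPM in CBE-KO, a log2 change of -1.40 ± 0.30 (SE; edgeR adjusted p = 0.00109). Wnt7b (ENSMUSG00000022382), a ligand of lung, kidney and brain development, was at 4.03 and 5.30 CPM in WT against 2.21 and 2.13 CPM in CBE-KO, a log2 change of -1.10 ± 0.26 (SE; edgeR adjusted p = 0.00209). For all 3, both CBE-KO libraries lay below both WT libraries.

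The 4 tested ligands that did not pass were Wnt2b, Wnt6, Wnt9a and Wnt11, with log2 changes from -0.69 to 0.37. Wnt9a was at 3.83 and 3.56 CPM in WT against 4.31 and 5.28 CPM in CBE-KO (log2 change 0.37 ± 0.22, SE; edgeR adjusted p = 0.197). Wnt6 was at 1.91 and 2.10 CPM in WT against 0.800 and 1.72 CPM in CBE-KO, so the CBE-KO libraries differed from each other by more than either WT library from the nearer of them. It did not pass (edgeR adjusted p = 0.161), except without CBE-KO replicate 2, when its log2 change was -1.32 (edgeR adjusted p = 0.0493). The other 10 ligands, Wnt1, Wnt2, Wnt3, Wnt3a, Wnt5a, Wnt7a, Wnt8b, Wnt9b, Wnt10a and Wnt16, had 0 to 14 counts per library. Wnt3a, the ligand most often used to drive β-catenin signalling in culture, had 9 and 8 counts in WT against 5 and 1 in CBE-KO. Wnt16 had 1 and 0 counts in WT against 5 and 4 in CBE-KO, a ratio of 8.29 with an exact 95% interval of 1.15 to 363. Without the filter on low counts none of these 10 passed in edgeR, with the lowest adjusted p at 0.162 for Wnt3a, and 1 had an unadjusted p under 0.05. DESeq2 without that filter called none and gave an adjusted p for 2 of the 10.

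Several Wnt genes lie side by side in the genome, which allowed neighbours of Wnt10b to be read as well. Wnt10b (chr15:98770712-98778206 on GRCm38.p6) is followed by Wnt1, which had 1 and 0 counts in WT against 0 and 1 in CBE-KO, and by Ddn, a gene of neuronal dendrites, which had 8 and 3 counts in WT against 3 and 3 in CBE-KO. On the other side Arf3, a small GTPase of membrane traffic, had 3640 and 3592 counts in WT against 3676 and 3223 in CBE-KO, a log2 change of -0.19 ± 0.05 (SE; edgeR adjusted p = 0.00436). Wnt1 and Ddn had too few counts to be tested, so Arf3 was the one tested neighbour. Its fall did not pass with libraries scaled by their totals (edgeR adjusted p = 0.181) or without CBE-KO replicate 2 (edgeR adjusted p = 0.0503). The other adjacent ligand pairs were Wnt3a with Wnt9a, Wnt6 with Wnt10a, and Wnt9b with Wnt3, and in none of these did a gene pass. Wnt2, Wnt16, Wnt7a, Wnt5b, Tcf7l1 and Lrp6 are the genes of the set on chromosome 6, which carries HoxA. Of these 6, Wnt5b and Lrp6 were higher, Tcf7l1 was lower, and 3 were not tested. Among all genes tested 43.1% passed in edgeR, and Wnt5b missed the threshold in DESeq2 (adjusted p = 0.0894). Whether their place on chromosome 6 bears on these changes was not tested.

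The receptors held the highest share of changed genes among the classes: 10 of 11 tested passed, 7 higher and 3 lower, with a median log2 change of 0.64, while Fzd6 had no counts in any library. Of all genes tested, 43.1% passed in edgeR, 21.6% as higher and 21.5% as lower. DESeq2 called 9 of the 11 receptors, against 28.6% of all genes tested. With a log2 change of 1 or more in size also required, 3 of the 11 passed in edgeR, against 8.64% of all genes. The difference between classes was not tested. The group was split by direction within subfamilies. Fzd1 and Fzd2 were higher and their close relative Fzd7 lower, and Fzd8 was higher and its close relative Fzd5 lower.

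Fzd1 (ENSMUSG00000044674) was at 0.478 and 0.871 CPM in WT against 2.89 and 3.50 CPM in CBE-KO, a log2 change of 2.24 ± 0.37 (SE; edgeR adjusted p = 9.86e-05). Fzd1 rests on 7 and 12 counts in WT against 47 and 51 in CBE-KO. Its log2 change ran from 1.86 to 2.71 when 1 library was left out. Fzd8 (ENSMUSG00000036904) was at 2.46 and 2.10 CPM in WT against 8.18 and 6.59 CPM in CBE-KO, a log2 change of 1.69 ± 0.23 (SE; edgeR adjusted p = 1.28e-05). Fzd4 (ENSMUSG00000049791), which also serves as the receptor for Norrin in blood vessels of the retina, was at 7.11 and 7.77 CPM in WT against 22.0 and 18.6 CPM in CBE-KO, a log2 change of 1.45 ± 0.14 (SE; edgeR adjusted p = 2.72e-07). These 3 receptors were low in both WT libraries and higher in both CBE-KO libraries. Fzd2 went from 11.9 ± 0.309 to 21.8 ± 0.246 CPM (SD, n = 2 per group), a log2 change of 0.87. Fzd3, known for axon guidance and planar polarity, went from 8.89 ± 0.466 to 13.9 ± 2.58 CPM (SD, n = 2 per group), a log2 change of 0.64, and did not pass without CBE-KO replicate 2 (edgeR log2 change 0.44, adjusted p = 0.0709).

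Both coreceptors were higher. Lrp5 (ENSMUSG00000024913), whose human counterpart is known for bone mass disorders, was at 70.5 and 75.3 CPM in WT against 113 and 113 CPM in CBE-KO. Its log2 change was 0.64 ± 0.06 (SE; edgeR adjusted p = 8.91e-08). Lrp6, the other coreceptor, was at 65.0 and 68.1 CPM in WT against 78.5 and 78.4 CPM in CBE-KO, a smaller log2 change of 0.24 ± 0.06 (SE; edgeR adjusted p = 0.00355). Neither gene's groups overlapped.

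The receptors that fell changed by less than those that rose most. Fzd7 (ENSMUSG00000041075), a receptor well known from pluripotent cells, was at 134 and 145 CPM in WT against 115 and 119 CPM in CBE-KO, a log2 change of -0.25 ± 0.05 (SE; edgeR adjusted p = 0.000930). Fzd5 was at 65.5 and 67.3 CPM in WT against 48.0 and 50.5 CPM in CBE-KO, a log2 change of -0.43 ± 0.07 (SE; edgeR adjusted p = 4.58e-05). Fzd9 was at 7.24 and 6.68 CPM in WT against 4.61 and 5.28 CPM in CBE-KO, and its log2 change of -0.50 ± 0.19 (SE) passed narrowly in edgeR (adjusted p = 0.0466). Fzd9 missed the threshold in DESeq2 (adjusted p = 0.196) and in edgeR without WT replicate 1, CBE-KO replicate 1 or CBE-KO replicate 2 (adjusted p = 0.146, 0.240 and 0.0615). It also missed it in edgeR with upper-quartile scaling, library totals or no filter on low counts (adjusted p = 0.0625, 0.111 and 0.0516). Fzd10 was the tested receptor that did not pass, at 24.1 and 22.2 CPM in WT against 25.0 and 23.6 CPM in CBE-KO.

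**Figure D2:**
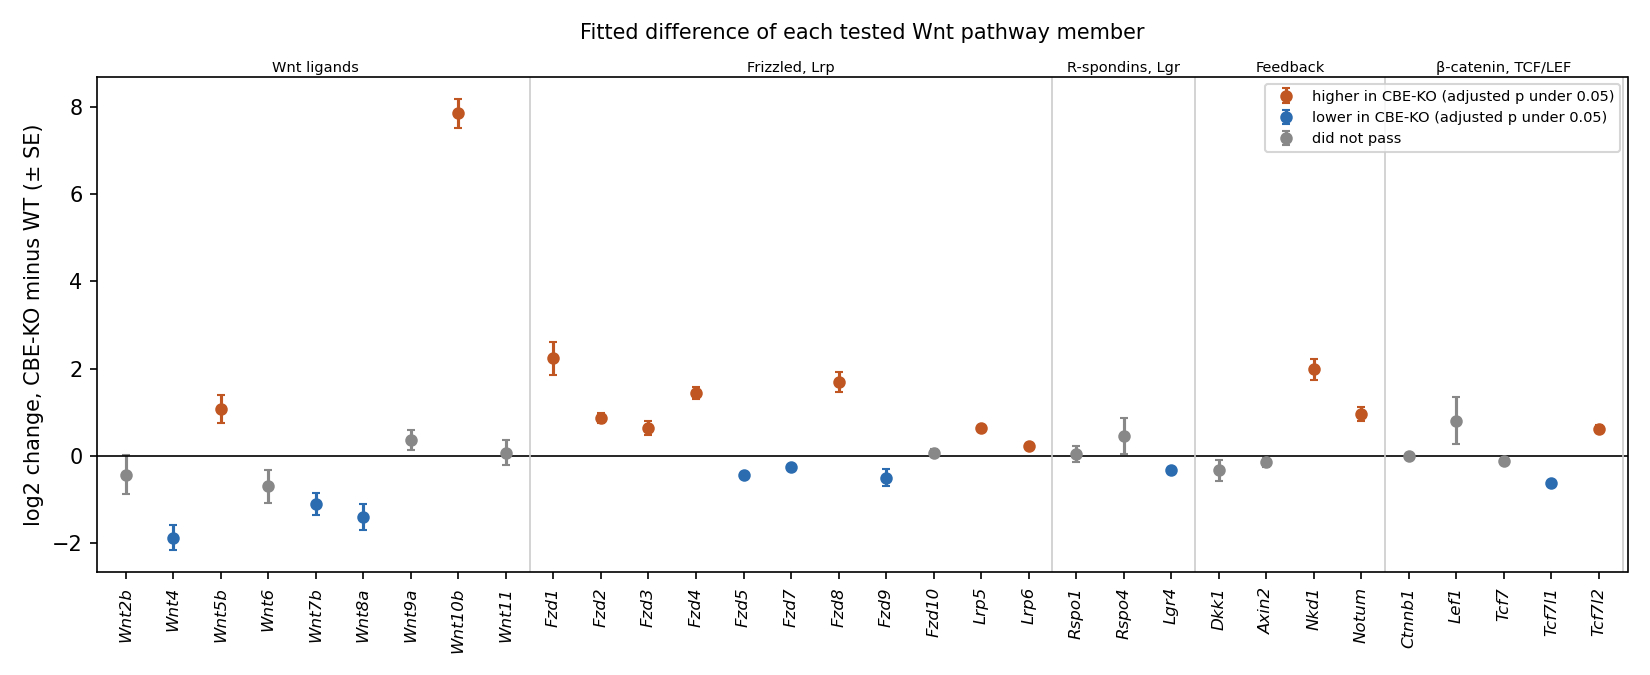
Fitted log2 change, CBE-KO minus WT, of each of the 32 tested genes. Points are orange or blue where edgeR's adjusted p was under 0.05 and grey elsewhere. Bars give the fit's standard error (2 libraries per group), for which edgeR moderates each gene's variability using all tested genes. In the receptor class 7 points are orange and 3 are blue. The fitted value of Wnt10b depends on the small count added by the model, because its WT libraries held 0 and 3 counts.

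Near Fzd1 (chr5:4753839-4758216 on GRCm38.p6), the gene Cdk14 on one side had 5 and 4 counts in WT against 19 and 7 in CBE-KO and was not tested. On the other side Mterf1b did not pass (log2 change -0.54 ± 0.27, SE; edgeR adjusted p = 0.126), except without CBE-KO replicate 2, where it was lower (-1.06; edgeR adjusted p = 0.00818). Cyp51, an enzyme of cholesterol synthesis and the next gene beyond it, was higher by 0.18 ± 0.07 (SE; edgeR adjusted p = 0.0421), and did not pass without WT replicate 2 or CBE-KO replicate 1 (edgeR adjusted p = 0.162 and 0.322) or in DESeq2 (adjusted p = 0.237).

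R-spondins are secreted proteins that bind Lgr receptors and keep Frizzled receptors at the cell surface. In this class 3 of 6 genes were tested and 1 passed, while 43.1% of all genes tested passed in edgeR. Lgr4 (ENSMUSG00000050199) was at 31.2 and 31.4 CPM in WT against 25.0 and 24.8 CPM in CBE-KO. Its log2 change was -0.33 ± 0.09 (SE; edgeR adjusted p = 0.00476), with both CBE-KO libraries below both WT libraries. Rspo1 was at 6.15 and 6.17 CPM in WT against 5.72 and 7.07 CPM in CBE-KO, and the groups overlapped. Rspo4 was at 1.09 and 1.16 CPM in WT against 2.03 and 1.03 CPM in CBE-KO and did not pass (edgeR adjusted p = 0.397). Rspo2 and Rspo3 had 0 to 5 counts per library, and Lgr5, a target gene known as a marker of intestinal stem cells, had none in any library, which allows up to 0.218 CPM.

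The feedback antagonists were not uniform: Nkd1 and Notum were higher, while Axin2 and Dkk1 did not pass. Nkd1 (ENSMUSG00000031661), which binds Dishevelled and damps the signal inside the cell, was at 2.05 and 1.52 CPM in WT against 6.64 and 7.68 CPM in CBE-KO. Its log2 change was 1.99 ± 0.24 (SE; edgeR adjusted p = 3.81e-06), with no overlap. Notum (ENSMUSG00000042988), a secreted enzyme that removes the lipid from Wnt ligands, was at 6.29 and 6.31 CPM in WT against 12.3 and 12.3 CPM in CBE-KO, a log2 change of 0.96 ± 0.15 (SE; edgeR adjusted p = 7.60e-05).

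Axin2 (ENSMUSG00000000142), a scaffold of the destruction complex and the most widely used readout of β-catenin signalling, was at 22.1 and 25.3 CPM in WT against 21.3 and 21.7 CPM in CBE-KO. The difference, -0.14 ± 0.10 (SE) on the log2 scale, did not pass (edgeR adjusted p = 0.290), and the 2 WT libraries differed from each other by more than the nearer WT library from either CBE-KO library. Dkk1, a secreted protein that blocks Lrp5 and Lrp6, was at 3.69 and 4.35 CPM in WT against 3.38 and 3.02 CPM in CBE-KO (log2 change -0.32 ± 0.24, SE; edgeR adjusted p = 0.292). Sp5, a transcription factor that is a direct target of β-catenin, had 0 and 0 counts in WT against 2 and 3 in CBE-KO. All 4 values lie at or under the floor of 3 counts, so no fold change is given, and without the filter on low counts its edgeR adjusted p was 0.286.

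In the nucleus, Tcf7l1 and Tcf7l2 moved in opposite directions. Tcf7l1 (ENSMUSG00000055799), the repressor that limits pluripotency genes in mouse embryonic stem cells, was at 151 and 151 CPM in WT against 95.7 and 101 CPM in CBE-KO, a log2 change of -0.62 ± 0.05 (SE; edgeR adjusted p = 3.42e-08). Tcf7l2 (ENSMUSG00000024985), a factor known for the intestinal crypt and the forebrain, was at 22.0 and 20.6 CPM in WT against 34.3 and 30.8 CPM in CBE-KO, a log2 change of 0.61 ± 0.09 (SE; edgeR adjusted p = 4.35e-05). For both, the groups did not overlap.

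Ctnnb1 (ENSMUSG00000006932), the gene for β-catenin, was at 433 and 444 CPM in WT against 457 and 427 CPM in CBE-KO, a log2 change of 0.01 ± 0.05 (SE; edgeR adjusted p = 0.860). These are RNA levels, and β-catenin is regulated mainly as a protein. Tcf7 was at 45.8 and 50.2 CPM in WT against 44.4 and 44.2 CPM in CBE-KO (log2 change -0.12 ± 0.07, SE; edgeR adjusted p = 0.227). Lef1, which is itself often induced by β-catenin, had 5 and 10 counts in WT against 19 and 10 in CBE-KO, too few to separate the groups (log2 change 0.81 ± 0.53, SE; edgeR adjusted p = 0.236).

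**Figure D3:**
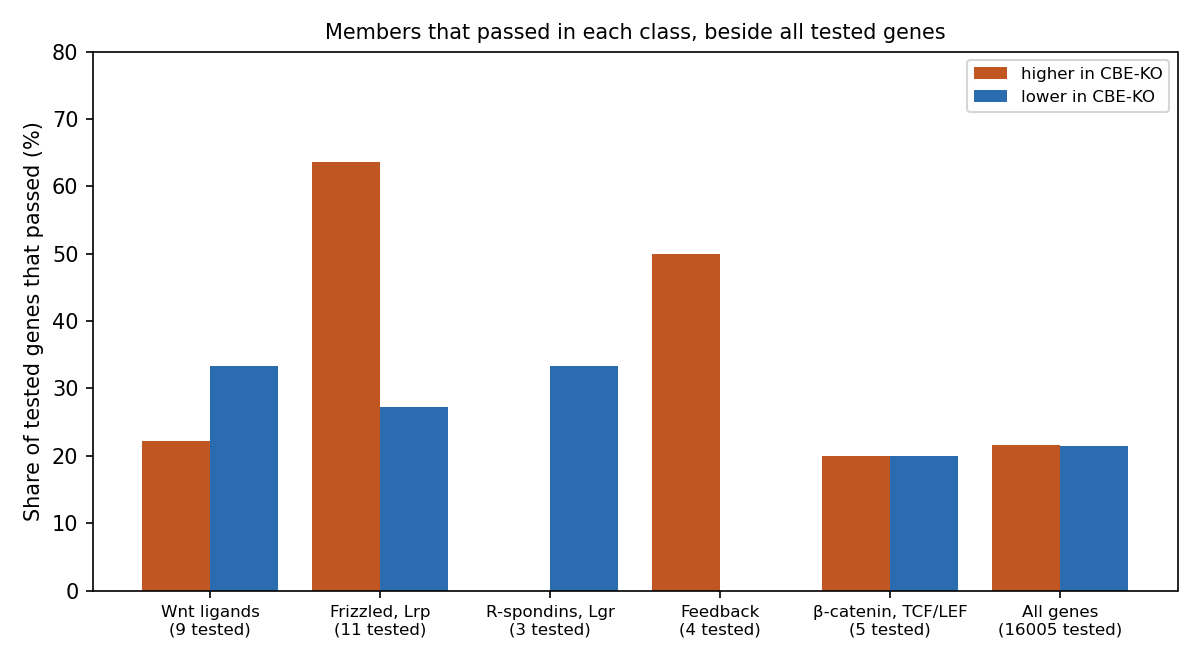
Share of tested genes, in percent, that were higher (orange) or lower (blue) in CBE-KO at an edgeR adjusted p under 0.05, for each class and for all 16005 genes tested. The receptor class, with 7 higher and 3 lower of 11, stands above the 21.6% and 21.5% of all genes, and classes of 3 to 5 tested genes rest on 1 or 2 genes per bar.

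The rest of the pathway was read from 76 further genes, grouped by role, of which 65 were tested and 34 passed, 23 higher and 11 lower, with a median log2 change of 0.05. This is 52.3% of those tested, near the 43.1% of all genes in edgeR. DESeq2 called 24 of the 65, against 28.6% of all genes tested. The lists below hold 3 to 13 tested genes each, and their shares were not tested against the 21.6% of all genes that were higher and the 21.5% that were lower. Among genes for ligand secretion, 1 of 6 was higher and 4 were lower, although Vps35 did not pass with library totals (edgeR adjusted p = 0.135), nor Vps26a with library totals (0.330) or without WT replicate 2, CBE-KO replicate 1 or CBE-KO replicate 2 (0.121, 0.145 and 0.0763). Wls, the carrier that brings Wnt ligands to the cell surface, had 59 and 69 counts in WT against 358 and 302 in CBE-KO. This took it from 4.52 ± 0.691 to 21.4 ± 0.920 CPM (SD, n = 2 per group), a log2 change of 2.24 ± 0.15 (SE; edgeR adjusted p = 3.28e-09). Porcn, the enzyme that adds the lipid to Wnt ligands, was at 344 ± 11.4 CPM in WT against 342 ± 9.95 CPM in CBE-KO (SD, n = 2 per group; edgeR adjusted p = 0.918). Snx3, a sorting factor that recycles Wls, fell from 239 ± 7.02 to 186 ± 2.29 CPM (SD, n = 2 per group), a log2 change of -0.36.

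Among 15 secreted inhibitors and their partners, 8 were tested, and 5 were higher and none lower. Sfrp1, a decoy that binds Wnt ligands, went from 33.6 ± 0.606 to 71.5 ± 0.352 CPM (SD, n = 2 per group), a log2 change of 1.09 ± 0.07 (SE; edgeR adjusted p = 1.45e-09). Dkk3 was higher by a log2 change of 1.11 ± 0.17 (SE) and Sfrp5 by 0.87 ± 0.09 (SE). Apcdd1 and Kremen1, higher by 0.64 and 0.26, missed the threshold in DESeq2 (adjusted p = 0.0977 and 0.166) and in edgeR without WT replicate 1 (adjusted p = 0.0824 and 0.104). For Apcdd1 the same held without CBE-KO replicate 1, and for Kremen1 without either CBE-KO replicate.

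None of the 3 Dishevelled genes passed in edgeR, nor did any of the 3 receptor turnover genes, Znrf3, Rnf43 and Lgr6. In both lists 0 genes had an unadjusted edgeR p under 0.05 and DESeq2 called 0. In the destruction complex 1 of 9 passed, Amer1 (log2 change 0.35 ± 0.11, SE), and it missed the threshold in DESeq2 (adjusted p = 0.125) and in edgeR without WT replicate 1 or CBE-KO replicate 2 (adjusted p = 0.0813 and 0.0644). Of 11 nuclear cofactors, 4 were higher and 3 lower in edgeR, and 4 of these 7 passed in DESeq2, without Pygo1, Tle2 and Ctnnbip1. Tle2 (log2 change -0.36, edgeR adjusted p = 0.0499) lost its call in each fit that left out 1 library (adjusted p 0.0667 to 0.146), and Ctnnbip1 (0.26) without WT replicate 1, WT replicate 2 or CBE-KO replicate 2 (edgeR adjusted p = 0.0785, 0.0953 and 0.173). The largest passing changes there were those of Pygo1, a β-catenin coactivator (0.57 ± 0.21, SE), and Tle4, a Groucho-type corepressor of TCF/LEF factors (-0.56 ± 0.05, SE). Pygo1 missed the threshold in DESeq2 (adjusted p = 0.198) and in edgeR without WT replicate 1 or either CBE-KO replicate (adjusted p = 0.134, 0.114 and 0.117).

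The list for Wnt signalling without β-catenin and planar cell polarity also held Nkd2, whose relative Nkd1 is counted above as a feedback antagonist. Of 12 tested genes in it, 6 were higher and 2 lower in edgeR, and 6 of these 8 passed in DESeq2. Prickle2, a planar polarity protein, went from 3.20 ± 0.311 to 8.87 ± 0.416 CPM (SD, n = 2 per group), a log2 change of 1.47 ± 0.20 (SE; edgeR adjusted p = 1.24e-05). Nkd2, the relative of Nkd1, was higher by 0.95 ± 0.28 (SE), and missed the threshold in DESeq2 (adjusted p = 0.0949) and in edgeR without CBE-KO replicate 2 (adjusted p = 0.0904). Daam1 (log2 change -0.23) missed it in DESeq2 (adjusted p = 0.109) and in edgeR with library totals, without WT replicate 2 or without CBE-KO replicate 2 (adjusted p = 0.200, 0.0665 and 0.142), and Celsr2 (0.52) in edgeR without WT replicate 2 or CBE-KO replicate 1 (adjusted p = 0.0618 and 0.0521). Of 15 further genes known as targets in other settings, 13 were tested, 6 were higher and 2 lower. Of these 8, Jun (log2 change 0.47) missed the threshold in DESeq2 (adjusted p = 0.115) and in edgeR without WT replicate 2 or CBE-KO replicate 2 (adjusted p = 0.182 and 0.0598). Id2, an inhibitor of differentiation factors that other signals also induce, went from 22.4 ± 2.60 to 78.2 ± 5.71 CPM (SD, n = 2 per group), a log2 change of 1.80 ± 0.09 (SE; edgeR adjusted p = 4.27e-11). Myc, a growth regulator with many inputs, fell from 70.0 ± 0.198 to 26.5 ± 2.14 CPM (SD, n = 2 per group), a log2 change of -1.40 ± 0.08 (SE; edgeR adjusted p = 2.18e-10).

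**Figure D4:**
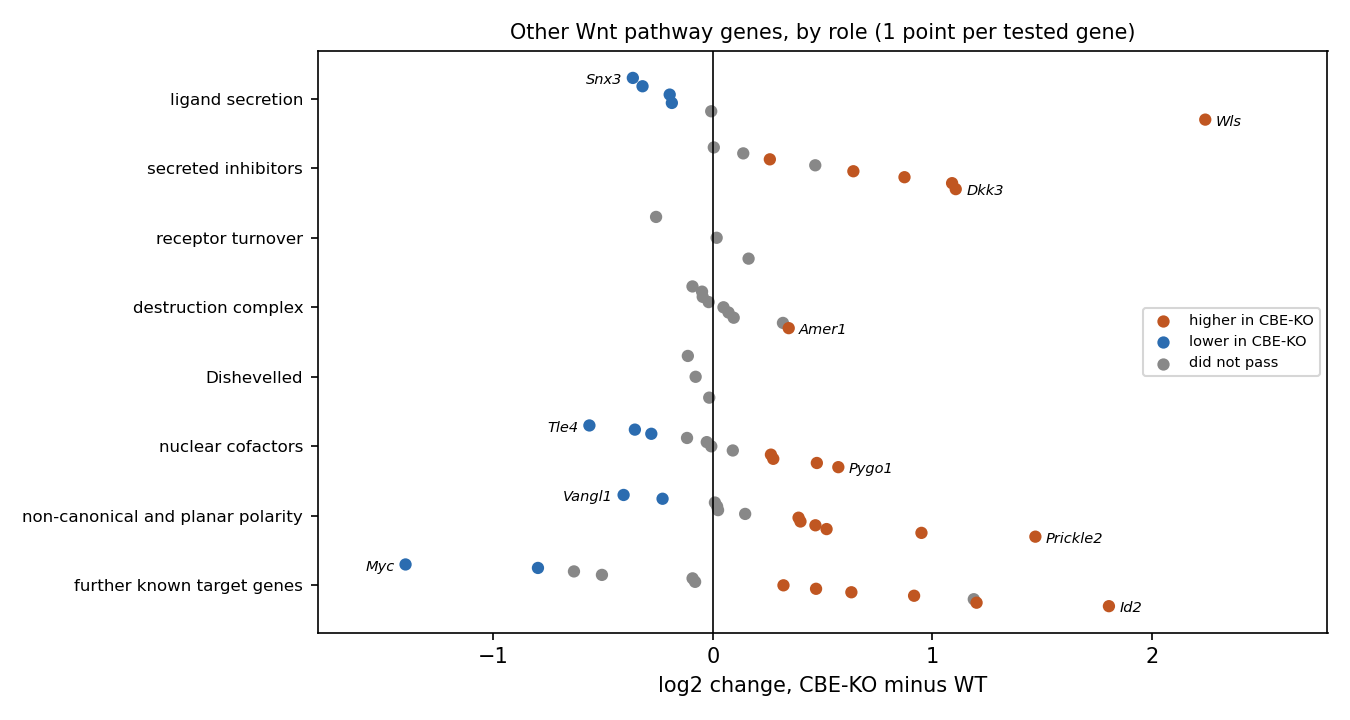
Log2 change, CBE-KO minus WT, of each tested gene in 8 lists of other pathway genes, 1 point per gene, in orange (higher) or blue (lower) where edgeR's adjusted p was under 0.05 and in grey elsewhere. The outermost passing gene of a list is named. All Dishevelled and receptor turnover points are grey, while Wls reaches 2.24.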

How the data were processed

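For each RNA-seq library the authors deposited 1 table of raw counts, whole numbers for every Ensembl gene identifier. HISAT2 2.1.0, HTSeq 0.9.1, DESeq2 1.18.1, Bowtie2 2.3.1 and the build mm10 are named in the submitters' processing notes, without their roles. Use of strand and treatment of reads that match several genes are not given in the sources used here, so overlapping and antisense genes are uncertain. Capture-C data (6 samples) were not analysed here.

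Of 52636 identifiers, 52403 matched a symbol in a supplied gene name table. Genes passing edgeR's filterByExpr (16005) were tested with edgeR 4.0.16 in R 4.3.3 (glmQLFit and glmQLFTest, TMM scaling, no covariate, two-sided, Benjamini-Hochberg adjustment over all tested genes, threshold 0.05). The SE of a log2 fold change is its size divided by the square root of the F statistic. DESeq2 1.42.0, other scalings and filters, robust moderation, a replicate block and leaving out each library were alternatives. On simulated counts for 16005 genes, edgeR recovered 150 of 200 genes changed by a log2 fold change of 1, with 8 calls among unchanged genes. It recovered 185 of 200 changed by 2, with 20 such calls. In the data 43.1% of genes passed, far more than were changed in the simulation, so these values do not give the recovery here. Depth was 14108038 to 15632960 counts, and intervals and floors cover counting error only, since reads are not independent molecules.

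The genes, their classes and the lists of other pathway genes were chosen with earlier results of these data known. Genes named with values were those that passed with a log2 fold change of 1 or more in size, those at no more than 3 counts in all libraries of 1 group only, the 3 with the highest mean CPM per class, Axin2, Sp5, Lef1, Ctnnb1 and Tcf7l1, the leading passing genes of each further list, and neighbours of genes changed by at least 2. The remaining members, Porcn, and those of 5 or fewer counted genes outside this rule were named after their values were seen. Promoters came from a RefSeq table of GRCm38.p6.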

Additional observations from a re-analysis of the deposited data

How the results depend on the processing

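The count of 20 changed Wnt genes was 18 in DESeq2 and 19 to 20 under the other scalings, filters, moderation and replicate block, and 19 in each fit that left out 1 library, in which the lone library of a group is assumed to vary like the pair in the other. With a minimum log2 fold change of 1 in size it was 9 (6 higher, 3 lower): 3 receptors, 1 feedback antagonist, 0 R-spondin or Lgr genes and 0 β-catenin or TCF/LEF genes, and the other pathway genes fell from 34 to 7. Over all genes that setting left 1383 (975 higher, 408 lower) of 6895, and DESeq2 called 4577, 2047 of them higher. Of the genes called, 50.2% were higher with TMM and 66.9% with library totals, which moved the median of all genes to 0.11. The other pathway genes numbered 24 in DESeq2.

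No tested Wnt gene changed sign under another scaling. When 1 library was left out, the sign changed for 5 genes that had not passed: log2 fold changes ranged from -0.86 to 0.23 for Wnt2b, -0.033 to 0.19 for Wnt11, -0.11 to 0.20 for Rspo1, -0.13 to 0.84 for Rspo4 and -0.036 to 0.059 for Ctnnb1. Same-numbered libraries deviated from their group means with a correlation of 0.037, and nothing says that they were prepared together. With the replicate block 20 Wnt genes passed, 12 higher and 8 lower, as did 7028 of all genes and 34 other pathway genes. The 15 untested Wnt genes had at most 14 counts in any library, which limits what this depth can show.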
